A study of Mus musculus with 7 samples.

Results

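Cyclins, a cyclin-dependent kinase, its inhibitors, the retinoblastoma gene and replication genes were followed here in soleus, a predominantly slow hindlimb muscle. The 9 genes were taken by symbol from the annotation of the array (Ccnd1, Ccna1, Ccna2, Cdk4, Cdkn1a, Cdkn2d, Rb1, Pcna and Pole2), and each had 1 probe, which gives 9 of the 223 probes (203 genes in all). The genes were selected on earlier results for these same signals, namely whether they stood above the background of each array and varied between arrays. Those levels and that spread are therefore given as a description. All 7 samples were soleus of tenascin-C-deficient 129/SV mice kept as cage controls, so they form 1 group. No mouse with the intact gene was analysed here, so nothing below measures what the loss of tenascin-C does. The labels give no age, no sex and no other treatment, and nothing on how the gene was disrupted or in which cells. They call the samples biological replicates, and replicates 1 to 7 below are names in accession order. The assay was a 1-channel array read with a radioactive cDNA label, and each value is a share of the summed signal of its array, given as percent. The array sum leaves out the probe for 28S rRNA and 1 unnamed bright probe. The RNA came from whole cryosections of the muscle belly, so fewer cells of a type and less RNA per cell cannot be told apart.

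D-type cyclins such as cyclin D1 (Ccnd1) activate the kinase Cdk4, which phosphorylates the retinoblastoma protein (Rb1) and so releases E2F transcription factors. These drive S-phase genes, among them cyclin A2 (Ccna2), the sliding clamp Pcna and Pole2, an accessory subunit of DNA polymerase epsilon. The inhibitor encoded by Cdkn2d binds Cdk4 directly, whereas that of Cdkn1a (p21) acts on several cyclin-kinase complexes. Cyclin A1 (Ccna1) is best known from male meiosis. Nuclei of adult muscle fibres have left the cell cycle, and the satellite cells beside them are mostly quiescent.

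The promoters of Ccna1 and Cdk4 are shown because both genes had a clear signal in replicates 4, 6 and 7 and a low one in replicates 1 and 2. A site of Pole2 is shown because Pole2 was the 1 gene of the 9 with a clear signal on every array. RefSeq windows of 300 bases (250 before and 50 after a transcript start, GRCm38.p6) were found for 6 of the 9 genes, and not for Ccna2, Ccnd1 and Rb1. The Ccna1 sequence is chr3:55055056-55055305 on the minus strand, and its capitals mark a CCAAT box (CCAAT or, on the other strand, ATTGG). The Cdk4 sequence is chr10:127063285-127063534 on the plus strand, and its capitals mark E-boxes (CACGTG). Both lines hold the 250 bases before the start. The Pole2 line is chr12:69228162-69228191 on the minus strand, and its capitals mark a match to the E2F motif.
Ccna1: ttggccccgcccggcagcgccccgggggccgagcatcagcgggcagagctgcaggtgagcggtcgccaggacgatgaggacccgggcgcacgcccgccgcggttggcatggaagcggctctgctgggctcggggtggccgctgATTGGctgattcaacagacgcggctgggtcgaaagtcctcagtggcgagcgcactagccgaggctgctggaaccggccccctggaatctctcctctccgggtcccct
Cdk4: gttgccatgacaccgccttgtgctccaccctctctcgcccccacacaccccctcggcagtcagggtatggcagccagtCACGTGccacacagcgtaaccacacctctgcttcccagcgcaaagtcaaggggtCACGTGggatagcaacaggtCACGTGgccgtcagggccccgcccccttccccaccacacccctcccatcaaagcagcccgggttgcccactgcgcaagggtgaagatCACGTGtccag
Pole2: cgtcggcggtgGCGCCAAAtcgcgaacatg

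The Cdk4 window held 4 E-boxes, beginning 172, 118, 98 and 11 bases before the start, and no other window of the 9 genes held this motif, which occurred in 7.15% of all 32851 windows. The E2F motif was searched on both strands as TTTGGCGC, TTTCGCGC, TTTCCCGC and TTTGCCGC and occurred in 2.26% of all windows. Of the 6 genes only Pole2 held a match, as GCGCCAAA, from base 11, counting the start as base 1. CCAAT was found on either strand in the windows of Ccna1, Cdkn2d and Pcna, and in 37.4% of all windows. The cell cycle element TTTGAA was in none of theirs and in 17.9% of all windows. None of these motifs overlapped another in these windows. A match describes the letters only, and the array gives no measurement of binding.

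The arrays carry no detection flag, so a floor was set for each array at its 10th percentile. The floor was 0.05%, 0.04%, 0.15%, 0.08%, 0.08%, 0.05% and 0.04% in replicates 1 to 7, and a signal above 3 times the floor was called clear. Replicate 3 stood apart from the other 6 arrays. There the 7 probes for muscle fibre genes summed to 2.55% of the array against 26.5% to 39.0% elsewhere, with Myh7, the slow myosin heavy chain, at 0.35% against 7.98% to 12.8% and myoglobin (Mb) at 0.32% against 7.23% to 9.17%. The Tnc probe itself read 0.08% to 0.18%, which was above the floor on all 7 arrays, at 1.13 to 3.0 times it, and clear on none. Replicates 1 and 2 differed from replicates 4 to 7 in the 28S rRNA probe, at 3.48% and 3.79% against 24.1% to 49.7%, with 0.37% in replicate 3. Results below are therefore given with and without replicate 3.

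Signals of the 9 genes were mostly low. Above the floor on all 7 arrays were 6 of the 9 genes, against 58.3% of all probes. A clear signal on all 7 arrays was seen for Pole2 alone, against 4.04% of all probes, and the same 1 of 9 was clear on the 6 arrays other than replicate 3, against 17% of all probes. Ccna2, Ccnd1, Cdkn1a and Pcna were clear on no array, which makes 4 of 9 against 57% of all probes. By array, 1, 1, 3, 3, 2, 3 and 3 of the 9 were clear in replicates 1 to 7, against 22%, 24.2%, 13%, 25.6%, 18.8%, 31.4% and 30.9% of all probes. The remaining genes were clear on some arrays only. These were Ccna1 in replicates 4 to 7, Cdk4 in replicates 4, 6 and 7, and Cdkn2d and Rb1 in replicate 3.

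**Figure D1:**
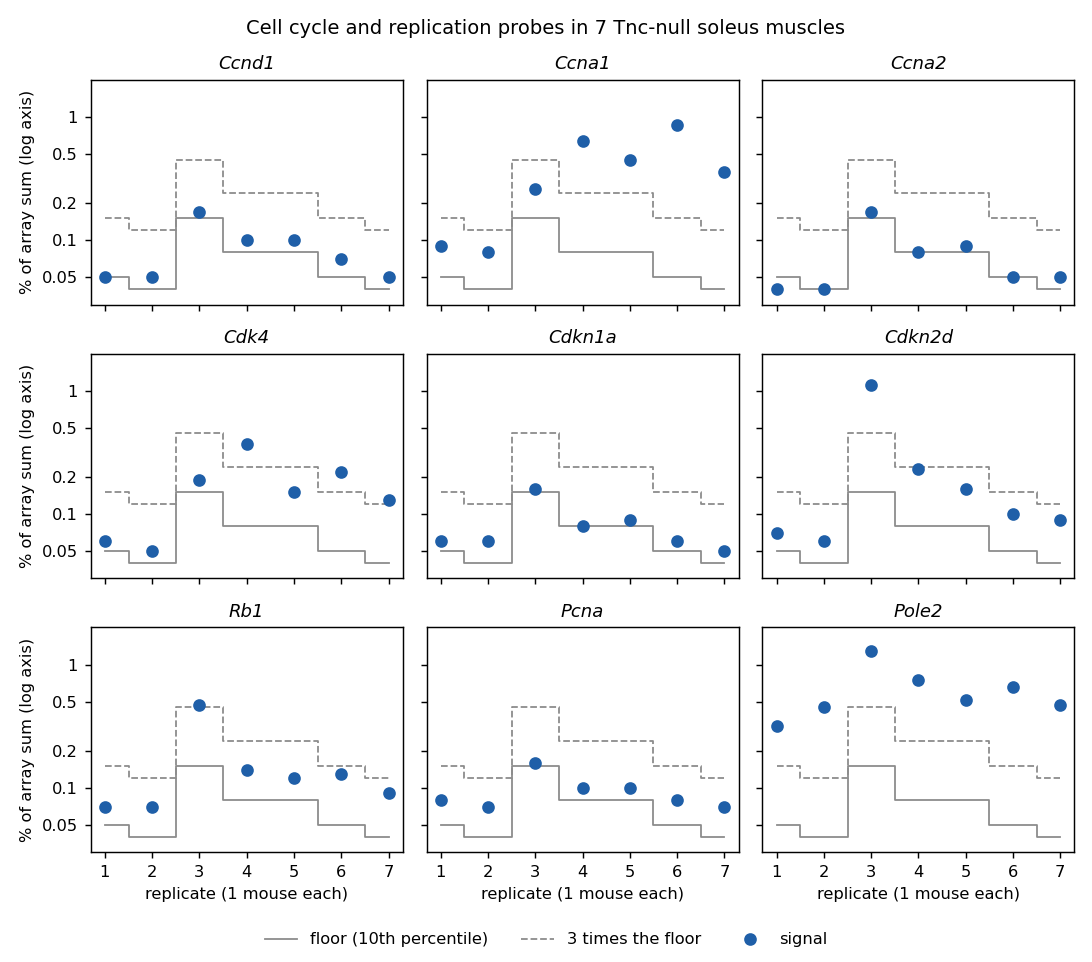
Signal of each gene in percent of the array sum (log axis) for replicates 1 to 7, with the floor of each array (solid line) and 3 times the floor (dashed line). Pole2 lies above the dashed line on all 7 arrays, Ccna1 does so in replicates 4 to 7, and Ccna2, Ccnd1, Cdkn1a and Pcna stay below it throughout.

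Among the cyclins, Ccna1 (Entrez 12427) differed widely between mice even outside replicate 3. It carried 0.09%, 0.08%, 0.26%, 0.64%, 0.45%, 0.86% and 0.36% of the array sum in replicates 1 to 7. It was thus low in replicates 1 and 2, high in replicates 4 to 7, and in replicate 3 below the 0.45% needed there for a clear signal. The mean was 0.391% ± 0.286 (SD, n = 7), and 0.413% ± 0.307 without replicate 3 (SD, n = 6). In multiples of the floor, replicates 1 to 3 stood at 1.8, 2.0 and 1.73 and replicates 4 to 7 at 5.62 to 17.2. The 28S rRNA signal was also lower in replicates 1 and 2 than in replicates 4 to 7 and was lowest in replicate 3. Its part in the result was not tested.

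Cyclins A2 and D1 gave no clear signal. Ccna2 (Entrez 12428), the cyclin of S phase and G2 in body cells, carried 0.04%, 0.04%, 0.17%, 0.08%, 0.09%, 0.05% and 0.05% in replicates 1 to 7. It was above the floor in replicates 3, 5 and 7 only, and its signal followed the floor from array to array. Ccnd1 (Entrez 12443) carried 0.05%, 0.05%, 0.17%, 0.10%, 0.10%, 0.07% and 0.05%, which was 1.0 to 1.4 times the floor. At this background neither transcript could be told from the level of the dimmest probes, which does not show that it was absent.

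Cdk4 (Entrez 12567), the kinase partner of cyclin D1, was low in replicates 1 and 2, as Ccna1 was. It carried 0.06%, 0.05%, 0.19%, 0.37%, 0.15%, 0.22% and 0.13% in replicates 1 to 7, with a mean of 0.167% ± 0.109 (SD, n = 7) and 0.163% ± 0.119 without replicate 3 (SD, n = 6). Replicates 4, 6 and 7 were clear, at 4.62, 4.4 and 3.25 times the floor, while replicate 5 was at 1.88 times. Replicates 1 to 3, at 1.2, 1.25 and 1.27 times the floor, lay near background, so no fold between arrays is given. Ccna1 and Cdk4 were the 2 genes that were not highest in replicate 3.

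Of the inhibitors, Cdkn2d (Entrez 12581) was clear in replicate 3 alone. It carried 0.07%, 0.06%, 1.12%, 0.23%, 0.16%, 0.10% and 0.09% in replicates 1 to 7, so that replicate 3 stood above the other 6 arrays. The mean was 0.261% ± 0.383 (SD, n = 7) and 0.118% ± 0.065 without replicate 3 (SD, n = 6). In replicate 4 the signal was 2.88 times the floor, just under the threshold for a clear signal. Cdkn1a (Entrez 12575) carried 0.06%, 0.06%, 0.16%, 0.08%, 0.09%, 0.06% and 0.05%, which was 1.0 to 1.5 times the floor.

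Rb1 (Entrez 19645), the substrate of Cdk4, carried 0.07%, 0.07%, 0.47%, 0.14%, 0.12%, 0.13% and 0.09% in replicates 1 to 7. Replicate 3 was the highest array and, at 3.13 times the floor, lay just past the threshold for a clear signal. Without it Rb1 averaged 0.103% ± 0.031 (SD, n = 6) and read 1.4 to 2.6 times the floor.

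Of the replication genes, Pole2 was clear on all 7 arrays and Pcna on none. Pcna (Entrez 18538) carried 0.08%, 0.07%, 0.16%, 0.10%, 0.10%, 0.08% and 0.07%, which was 1.07 to 1.75 times the floor. Pole2 (Entrez 18974) carried 0.32%, 0.45%, 1.28%, 0.75%, 0.52%, 0.66% and 0.47%, which was 6.4 to 13.2 times the floor. Replicate 3 was the highest for Pole2, 1.71-fold above replicate 4. The mean of Pole2 was 0.636% ± 0.317 (SD, n = 7) and 0.528% ± 0.155 without replicate 3 (SD, n = 6). Signals of different probes depend on primer and probe, so they do not rank the transcripts against each other.

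On the deposited scale 7 of the 9 genes were highest in replicate 3, against 70.4% of all probes. The median probe of that array was itself higher, at 0.18% against 0.07%, 0.07%, 0.13%, 0.11%, 0.10% and 0.08% in replicates 1, 2, 4, 5, 6 and 7. Each signal was therefore also divided by the median probe of its array, a comparison chosen after the values were seen. On this scale 6 of the 9 were highest in replicate 3, against 43% of all probes. Cdkn2d stood at 6.22 times the median there and 0.857 to 1.77 times elsewhere, and Rb1 at 2.61 times against 1.0 to 1.3 times. Ccna2, Ccnd1 and Cdkn1a were below the median probe on all 7 arrays, at 0.944, 0.944 and 0.889 times it in replicate 3, so their place there is that of a dim probe.

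Pole2 varied little once it was set against the median probe. It stood at 4.57, 6.43, 7.11, 5.77, 4.73, 6.6 and 5.88 times the median in replicates 1 to 7. Its SD between arrays was 0.24 on the log2 scale, compared with 0.64 on the deposited scale. With quantile normalization the SD of Pole2 was 0.80, so the small spread depends on the scaling. Ccna1 kept its contrast, at 1.29, 1.14 and 1.44 times the median in replicates 1 to 3 and 4.92, 4.09, 8.6 and 4.5 times in replicates 4 to 7. Cdk4 stood at 0.857, 0.714 and 1.06 times in replicates 1 to 3 and 2.85, 1.36, 2.2 and 1.62 times in replicates 4 to 7. For these 2 of the 9 genes each of replicates 4 to 7 was above each of replicates 1 to 3, against 7.17% of all probes. This split of the arrays was not planned beforehand, so the count is a description.

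**Figure D2:**
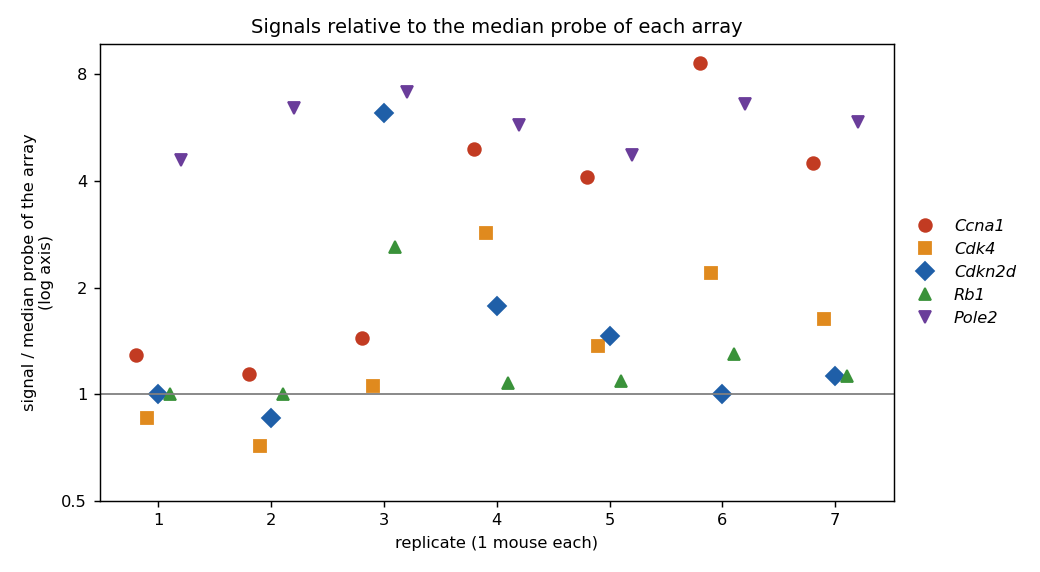
Signal divided by the median probe of the same array (log axis) for the 5 genes that were clear on at least 1 array, in replicates 1 to 7; the line marks the median probe. Pole2 stays between 4.57 and 7.11, Ccna1 and Cdk4 are higher in replicates 4 to 7 than in replicates 1 to 3, and Cdkn2d and Rb1 are highest in replicate 3.

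On the deposited scale, replicates 4 to 7 were each above both replicates 1 and 2 for 6 of the 9 genes, against 30% of all probes. After division by the array median this held for Ccna1, Cdk4 and Rb1, which is 3 of 9 against 15.7% of all probes. Rb1 differed little here, at 1.0 times in replicates 1 and 2 and 1.08 to 1.3 times in replicates 4 to 7. These arrays are not groups of the study, and the split was not planned beforehand, so these counts are a description. The title of replicate 1 carries the code C16 and those of the other 6 carry C15, which the labels do not explain and which does not separate replicate 2 from replicates 4 to 7. The 28S rRNA signal separates them in the same way, and its part in the result was not tested.

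The spread between mice ordered the genes differently with and without replicate 3. Over 7 arrays the SD of log2 signal was 1.45 for Cdkn2d, 1.33 for Ccna1, 1.02 for Cdk4, 0.94 for Rb1, 0.76 for Ccna2, 0.68 for Ccnd1, 0.64 for Pole2, 0.57 for Cdkn1a and 0.42 for Pcna. Cdkn2d thus had rank 22 and Pcna rank 189 among the 223 probes, counted from the most variable. The median SD of the 9 genes was 0.76, against 0.69 over all probes. After division by the array median the order of the 2 medians turned, to 0.32 for the 9 genes and 0.38 for all probes. Without replicate 3 the SD of Ccna1 was 1.45 (rank 6) and that of Cdk4 1.10 (rank 11), while Cdkn2d dropped to 0.73 (rank 26) and Rb1 to 0.45 (rank 103). The median of the 9 was then 0.49, against 0.43 over all probes, and after division by the array median 0.24 against 0.29.

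An F test on limma's variance estimates set the variance of each probe against the trend over mean signal. Over 7 arrays it called 0 of the 9 genes, with p adjusted after Benjamini and Hochberg, against 0% of all 223 probes. Before adjustment 17 probes had a p under 0.05, among them Cdkn2d and Ccna1. Without replicate 3 this F test called Ccna1 as 1 of the 9, against 2.24% of all probes. The unadjusted count was 22 with Ccna1 and Cdk4 among them. When the 6 arrays were also median-centred, 0 probes were called, with 17 at an unadjusted p under 0.05. The spread was part of the choice of these genes, so these calls are no independent evidence.

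**Figure D3:**
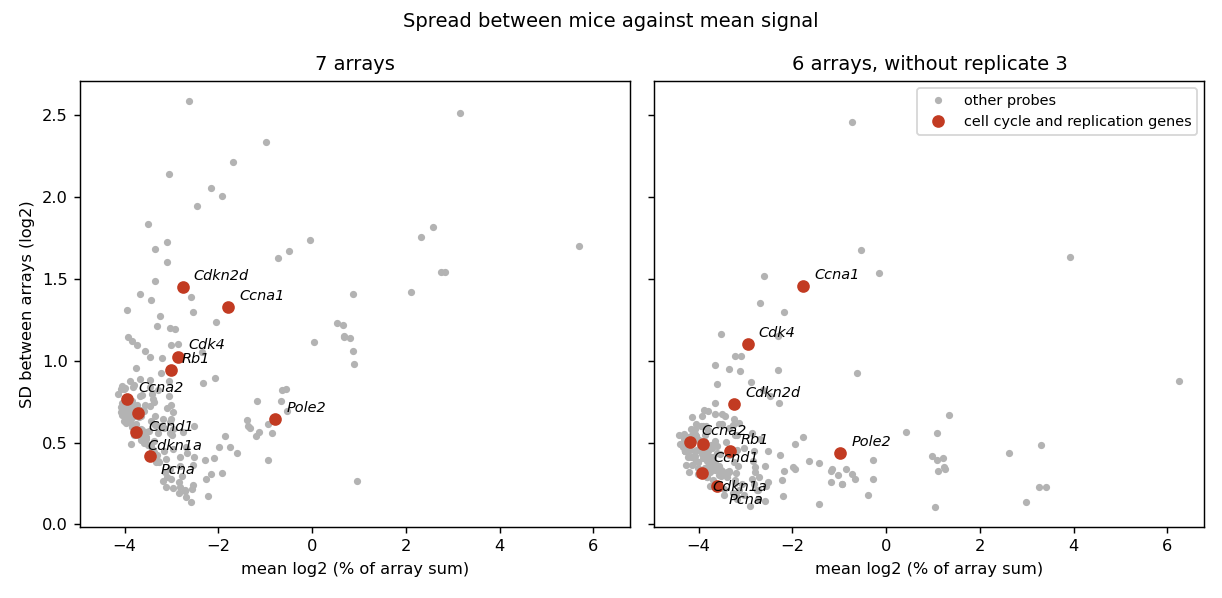
SD between arrays of log2 signal against mean log2 signal (percent of the array sum) for all 223 probes, with the 9 cell cycle and replication genes in red, over 7 arrays (left) and without replicate 3 (right). Cdkn2d has the largest SD of the 9 on the left (1.45) and Ccna1 on the right (1.45), while Pcna has the smallest in both (0.42 and 0.23).

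Patterns like those of the 5 genes with a clear signal were looked for among the other 204 named probes. Likeness was the root mean square difference of log2 deviations from the own mean of each probe over the 7 arrays. It was taken on the deposited scale only, without division by the array median, so differences in the level of whole arrays enter it. The nearest to Ccna1 were Ang, which encodes angiogenin (0.38), and Csf2rb2, a cytokine receptor subunit (0.47), against a median of 1.22 over all 204. Without replicate 3 their order turned, to 0.40 for Ang and 0.21 for Csf2rb2. Nearest to Cdk4 were Ang2 (0.33) and the IGF-binding protein gene Igfbp2 (0.37), against a median of 0.85. Angpt4, an angiopoietin, was nearest to Cdkn2d (0.15), followed by Prl2c3 (0.21), against 0.89. Lama4, a laminin chain, and Pola1, the catalytic subunit of DNA polymerase alpha, were nearest to Rb1 (both 0.18), against 0.55. Efnb1, an ephrin, and the growth hormone receptor gene Ghr were nearest to Pole2 (0.20 and 0.21), against 0.45. Efnb1 itself lay close to the median probe of each array. It read 0.07%, 0.08%, 0.22%, 0.18%, 0.13%, 0.15% and 0.09% in replicates 1 to 7. The median probe read 0.07%, 0.07%, 0.18%, 0.13%, 0.11%, 0.10% and 0.08%. Without replicate 3 the differences of the pairs named for the other 4 genes were 0.13 to 0.35. Most of these neighbours reached the floor on some arrays. In replicate 1, with a floor of 0.05%, Ang, Csf2rb2, Ang2, Angpt4 and Pola1 read 0.05% and Igfbp2 and Prl2c3 0.04%. Lama4 and Efnb1 read 0.07% there and Ghr 0.12%. In replicate 2, with a floor of 0.04%, Igfbp2, Angpt4 and Prl2c3 read 0.04%. All these profiles share the same 7 arrays and their background.

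A list of other cell cycle genes had 5 probes on the array, namely Cdk5, Jun, Pold1, Pola1 and Top2a. Of these, 3 were above the floor on all 7 arrays and 0 were clear on all 7, against 58.3% and 4.04% of all probes. Cdk5, a kinase known mainly from neurons, carried 0.90% in replicate 3 and 0.05% to 0.12% on the other arrays, a place like that of Cdkn2d. The polymerase genes Pold1 and Pola1 read 0.39% and 0.36% in replicate 3 against 0.05% to 0.17% and 0.05% to 0.11% elsewhere, and were clear on no array, unlike Pole2. Jun, a growth-responsive transcription factor gene, was clear in replicates 4, 6 and 7, the arrays on which Cdk4 was clear, at 0.30%, 0.18% and 0.13%. In replicates 1 and 2, however, Jun was just under the threshold, at 2.6 and 2.75 times the floor, where Cdk4 stood at 1.2 and 1.25 times. The mitotic topoisomerase gene Top2a stayed at 1.0 to 1.12 times the floor. The median SD of the 5 was 1.02 over 7 arrays and 0.52 without replicate 3, against 0.687 and 0.435 over all probes.

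Some markers of other cell types were also high in replicate 3. The 5 endothelial probes summed to 9.50% there against 0.45% to 1.27% on the other arrays, with 2 of 5 clear in replicate 3 and Pecam1 the brightest at 8.36%. The 3 satellite cell and myoblast probes summed to 3.42% against 0.13% to 0.31%, with 1 of 3 clear, Myod1 at 3.11%. The other probes of both lists were not clear there, so these sums rest mainly on the clear probes and not on whole lists. The 3 fibroblast probes summed to 0.49% against 0.24% to 0.34% and the leukocyte probe Il1b read 0.17% against 0.04% to 0.09%, with 0 clear in either list. In replicate 3, Il1b and the brightest fibroblast probe by mean signal (Fn1, 0.16%) lay near the floor of 0.15%. Both were below the median probe of that array, at 0.18%, so their place there is that of a dim probe. The adipocyte probe Fabp4 was lower, at 0.18% against 0.34% to 0.66%. No marker was at 0, and the lists for blood and nerve had 0 probes. The part of these cells in the signals of Cdkn2d, Rb1 and Pole2 in replicate 3 was not tested.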

How the data were processed

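Per the labels' protocols, 4 µg of total RNA per muscle was reverse transcribed with gene-specific primers and a radioactive nucleotide. The deposited values are linear spot intensities that the authors scaled so that each array sums to about 100%, without 2 probes; values step by 0.01%. The scanner, its software and the background correction were not given in the sources used here. Probes were named through the supplied platform annotation (205 of 223 with 1 symbol), and the Entrez identifiers of all 9 genes matched RefSeq. The number of arrays limits the precision.

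Log2 of the deposited values was used without further scaling. limma 3.58.1 in R 4.3.3 fitted an intercept per probe and a robust trend of variance over mean signal. A one-sided F test compared the variance of each probe (6 residual degrees of freedom) with that trend. It was computed from the limma estimates and is not a limma function. Its denominator took the largest prior degrees of freedom of the fit. Benjamini-Hochberg adjustment was over all probes at 0.05. The test was tested on simulated data. That simulation used independent normal noise for each probe and no shift of a whole array, so it does not cover a shift like that of replicate 3. It also drew unaltered probes at exactly the variance of the trend. Scatter of probe variances around the trend is therefore not covered either. Named genes are the 9 members, the 2 most alike named probes per clear member, Rn28s1, Tnc, Myh7, Mb, the listed cell cycle genes on the array (the 4 brightest by rule; Top2a was added after its values were seen) and the brightest marker per list. The members, lists and criteria were chosen with earlier results of these data known. Alternatives were other floors, a 2-fold clear threshold, a pseudocount of 0.05%, floor subtraction, median-centring, quantile normalization, a filter on dim probes, a fit without trend and leaving out each replicate.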

Additional observations from a re-analysis of the deposited data

Results flagged for a closer look

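Dixon's ratio (gap of the extreme array to its neighbour over the whole range) was taken for the signals of the 9 genes and for the same signals over the array median, 18 values that are not independent. Above the critical value of 0.568 for 7 arrays were 8 of them, each time with replicate 3 as the highest array. On the deposited scale these were Cdkn2d (0.840), Rb1 (0.825), Pcna (0.667), Cdkn1a (0.636), Ccna2 (0.615) and Ccnd1 (0.583), 6 of 9 against 47.1% of all probes. Relative to the array median they were Cdkn2d (0.830) and Rb1 (0.814), 2 of 9 against 18.8% of all probes. The usual rate of about 1 in 20 by chance does not apply, since the spread between arrays was part of the choice of these genes and replicate 3 is high for most probes. The ratios are therefore a description.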

How the results depend on the processing

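Of the 9 genes, those above the floor on all arrays numbered 6, and 7 and 4 with the floor at the 5th and 25th percentile; leaving out 1 array gave 6 to 7. The count clear on all arrays was 1 under every alternative run. The count clear on no array was 4, 5 with the 25th percentile and 6 without replicate 3. The count with replicates 4 to 7 each above both replicates 1 and 2 was 6 and moved to 3 after division by the array median. Leaving out 1 array gave 0 to 1 genes, and 0 to 5 of all probes, called by the F test. The calls, 1 and 5, came without replicate 3, and the other fits gave 0. The SD of a gene moved by over 1.5 times for 5 of the 9 without replicate 3, for 6 after median-centring and for 5 with quantile normalization. It moved for 3 with the pseudocount and for 1 with floor subtraction, and for 0 when any other single array was left out. Floor subtraction left out values at or below the floor, so its SD rests on 3 arrays for Ccna2 and on 6 each for Ccnd1 and Cdkn1a. Depth is unknown for intensities, and dim signals are limited by the floor. No paired analysis was possible because there is 1 group.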

Other observations

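Further probes for DNA replication and topology were looked at after their values were seen. Top1, which relaxes DNA ahead of polymerases, carried 0.10%, 0.12%, 0.15%, 0.21%, 0.16%, 0.16% and 0.12% in replicates 1 to 7 and was clear in replicate 6 alone. Divided by the array median it stood at 1.43 to 1.71 times on the 6 arrays other than replicate 3 and at 0.833 times in replicate 3. Its SD on that scale without replicate 3 was 0.10 (log2), rank 223 of 223 counted from the most variable. On the deposited scale without replicate 3 the SD of Top1 was 0.39. The other topoisomerase probes Top2a, Top3a and Top3b had 0.50, 0.74 and 0.31 there. Rpa2, a subunit of the single-strand binding protein, carried 0.05% to 0.11% on the same 6 arrays and 0.20% in replicate 3, and was clear on none.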
